A study of Homo sapiens with 8 samples.

Results

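Overexpression of MYCL was examined by RNA sequencing in C4-2B, a human prostate adenocarcinoma line derived from LNCaP that grows without androgen, and the response was described over all genes that could be tested. The comparison used the 4 C4-2B libraries of a series of 8, and 16866 of 78691 genes in the count table passed the filter on low counts in those libraries. Control cells were transduced with an empty lentiviral vector and MYCL cells with a lentiviral vector that drives human MYCL from a constitutive promoter together with EGFP, with 2 libraries per group. Both groups were collected once expression was stable, so neither represents untreated cells, and the level of MYCL is set by the vector. The control titles describe biological replicates, but no label says whether the lines were transduced separately, and p-values measure the spread between these libraries. The remaining 4 libraries came from NCI-H660, a neuroendocrine prostate cancer line, with a non-targeting shRNA (shCtrl) or an shRNA against MYCL (shMYCL), and were used to test whether effects differed between the lines and in a joint fit of all 4 groups as an alternative.

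MYCL encodes L-MYC, a basic helix-loop-helix leucine zipper factor of the MYC family. These proteins pair with MAX and bind E-box DNA, whose canonical form is CACGTG, while MXD proteins, MNT and MXI1 pair with the same partner and oppose them. MYC family factors are best known for genes of ribosome production, nucleotide synthesis and the cell cycle. The study cites mutually exclusive amplification of family members in small cell lung cancer. It detected no MYCL amplification in neuroendocrine prostate cancer samples.

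Libraries held between 18090296 and 32344170 estimated counts, both MYCL libraries being smaller than both control libraries, and mitochondrial genes took between 9.63% and 10.7%. MYCL (chr1:39895428-39902256 on hg38, minus strand) rose from 11.4 and 13.4 CPM in control to 3554 and 4018 CPM in MYCL libraries, where CPM is the count scaled to library size with edgeR's TMM factors. The log2 fold change was 8.26 ± 0.12 (SE, n = 2 per group, edgeR's quasi-likelihood test, adjusted p = 3.9e-09). A gene count does not separate transcripts of the vector from those of the endogenous gene. Of 12 prostate luminal markers, KLK3 and ACP3 among them, all passed the count filter and 4 were lower. Markers of other cell types were low throughout, and levels were summed only over those that passed the count filter. For fibroblasts 2 of 8 passed, with a sum between 10.5 and 21.5 CPM. For leukocytes 2 of 7 passed, with a sum between 11.3 and 37.3 CPM. For endothelium 2 of 7 passed, with a sum between 7.14 and 9.55 CPM. The 1 of 9 neuroendocrine markers that passed lay between 0.922 and 2.12 CPM.

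Of the 16866 genes, 3355 (19.9%) were called different, which required an adjusted p below 0.05 together with a log2 fold change of 0.5 or more in either direction. Higher calls numbered 1986 (11.8%) and lower calls 1369 (8.12%), and these percentages are the background for each list below. Some genes belong to several lists, so the lists are not independent of each other. The median log2 fold change of all genes was -0.002. Among calls with a log2 change of 1 or more in size, 1032 were higher and 379 lower, so the larger changes were mostly increases. The split of the calls depended on scaling. On log2(TPM + 1), where TPM is the level per unit of gene length, 14174 genes were tested after a filter on TPM. Their median was -0.14, and 1006 were higher and 1997 lower by limma. After centring each library on its median, 1535 were higher and 993 lower. Changes below are on the TMM scale, relative to the median of all genes.

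**Figure D1:**
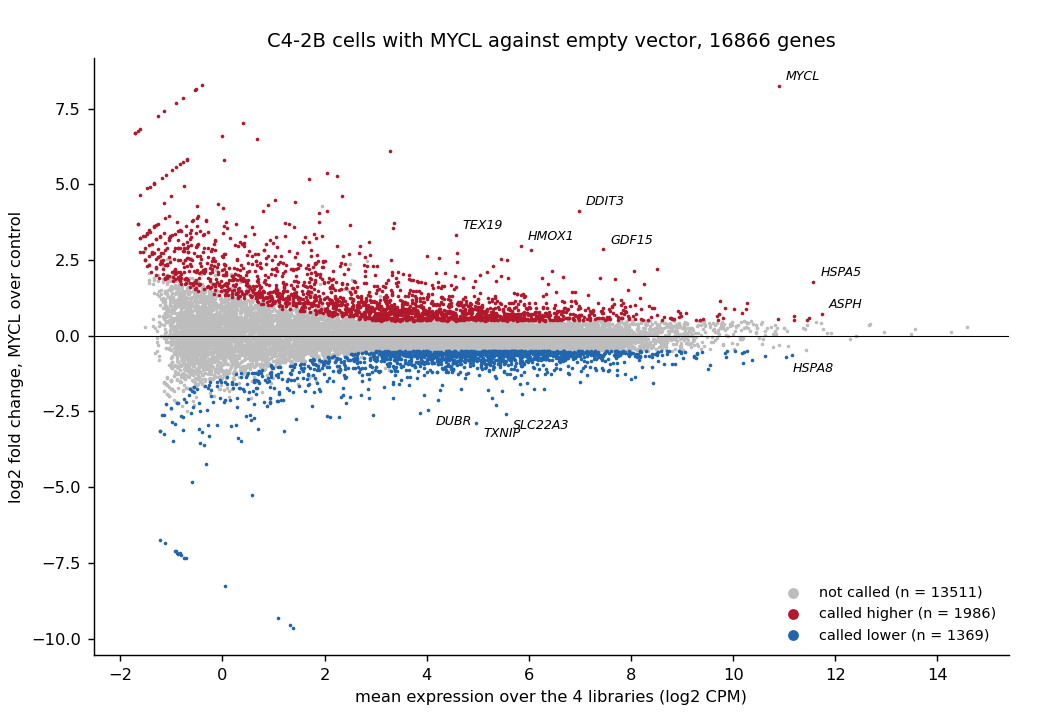
Log2 fold change of MYCL over control against mean expression in log2 CPM for each of the 16866 tested genes, with 1986 genes called higher in red and 1369 called lower in blue. MYCL and HSPA5 stand apart as abundant genes that rose, and the points at far left with extreme fold changes have few or no counts in one group.

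The 12 genes at the upper end of the fold changes, among called genes with a mean log2 CPM of at least 4, were led by DDIT3, which encodes the stress-induced factor CHOP. DDIT3 (chr12:57516588-57521737) rose from 11.9 and 15.8 CPM in control to 221 and 260.3 CPM in MYCL libraries, a log2 fold change of 4.13 ± 0.14 (SE, n = 2 per group, edgeR adjusted p = 1.5e-06). Its exons overlap those of MARS1 on the other strand over 27.2% of their length. TEX19, a gene normally restricted to the germ line and placenta, rose from 3.66 and 5.29 CPM in control to 40.7 and 48.6 CPM in MYCL libraries. HMOX1, heme oxygenase, which opens heme and releases iron, rose from 14 and 12 CPM in control to 86.8 and 119.8 CPM in MYCL libraries. For these 3 genes replicates lay close together beside the distance between groups. Of the exon length of TEX19, 43.8% lies in another gene on the other strand.

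GDF15, a stress-induced cytokine of the TGF-beta superfamily, rose from 43.4 and 42.6 CPM in control to 297 and 323 CPM in MYCL libraries. ATF3, a bZIP factor of the stress response, rose from 15.4 and 17.6 CPM in control to 124 and 111 CPM in MYCL libraries. CHAC1, which degrades glutathione, rose from 5.78 and 5.54 CPM in control to 29.6 and 37.9 CPM in MYCL libraries. The growth arrest and DNA damage genes moved with them: GADD45B went from 6.45 and 6.64 CPM in control to 44.9 and 41.6 CPM in MYCL libraries, and GADD45A went from 13.5 and 13.2 CPM in control to 71.4 and 61.6 CPM in MYCL libraries. CDKN1C, the CDK inhibitor p57, rose from 4.46 and 4.91 CPM in control to 29.8 and 27.6 CPM in MYCL libraries. NIBAN1, a stress-induced regulator of translation, rose from 10.4 and 16.4 CPM in control to 56.8 and 96.1 CPM in MYCL libraries, and the distance between its MYCL libraries was, as a ratio, the widest of the 12. S100P, MAB21L4 and the genes above completed the 12, with log2 fold changes of 2.51 and 2.45. GDF15 had the smallest adjusted p of the 12, 4.6e-07 by edgeR.

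At the lower end, TXNIP, which binds thioredoxin and restrains glucose uptake, fell from 48.7 and 58.7 CPM in control to 6.996 and 7.61 CPM in MYCL libraries, a log2 fold change of -2.88 ± 0.13 (SE, n = 2 per group, edgeR adjusted p = 3.9e-06). SLC22A3, an organic cation transporter, fell from 82 and 74.6 CPM in control to 13.5 and 12.6 CPM in MYCL libraries. SLC4A4, a sodium bicarbonate cotransporter, fell from 29.7 and 28.9 CPM in control to 6.4 and 6.98 CPM in MYCL libraries. AADAT, which acts in tryptophan and lysine breakdown, fell from 106 and 103 CPM in control to 33 and 28.4 CPM in MYCL libraries. Separation of both MYCL libraries from both control libraries was required of all 4 by the choice.

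The growth factor gene IGF1 fell from 93.1 and 89.7 CPM in control to 23.8 and 24.4 CPM in MYCL libraries, and 82.5% of its exon length lies in HELLPAR on the other strand. The noncoding DUBR fell from 28 and 24.5 CPM in control to 3.25 and 6.29 CPM in MYCL libraries. PCDH20, a protocadherin, fell from 66 and 66.6 CPM in control to 13.3 and 13.7 CPM in MYCL libraries, and 91.3% of its exon length is shared with a second identifier on the same strand. Replication and cell cycle genes made up most of the rest, with CLSPN at a log2 fold change of -1.83, CCNE2 at -1.79 and FAM111B at -1.76. RGPD5 was measured at 36.6 and 20.5 CPM against 12.4 and 4.29 CPM, but this gene has near-identical copies, its replicates differed widely and DESeq2 did not call it, which leaves its value uncertain.

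**Figure D2:**
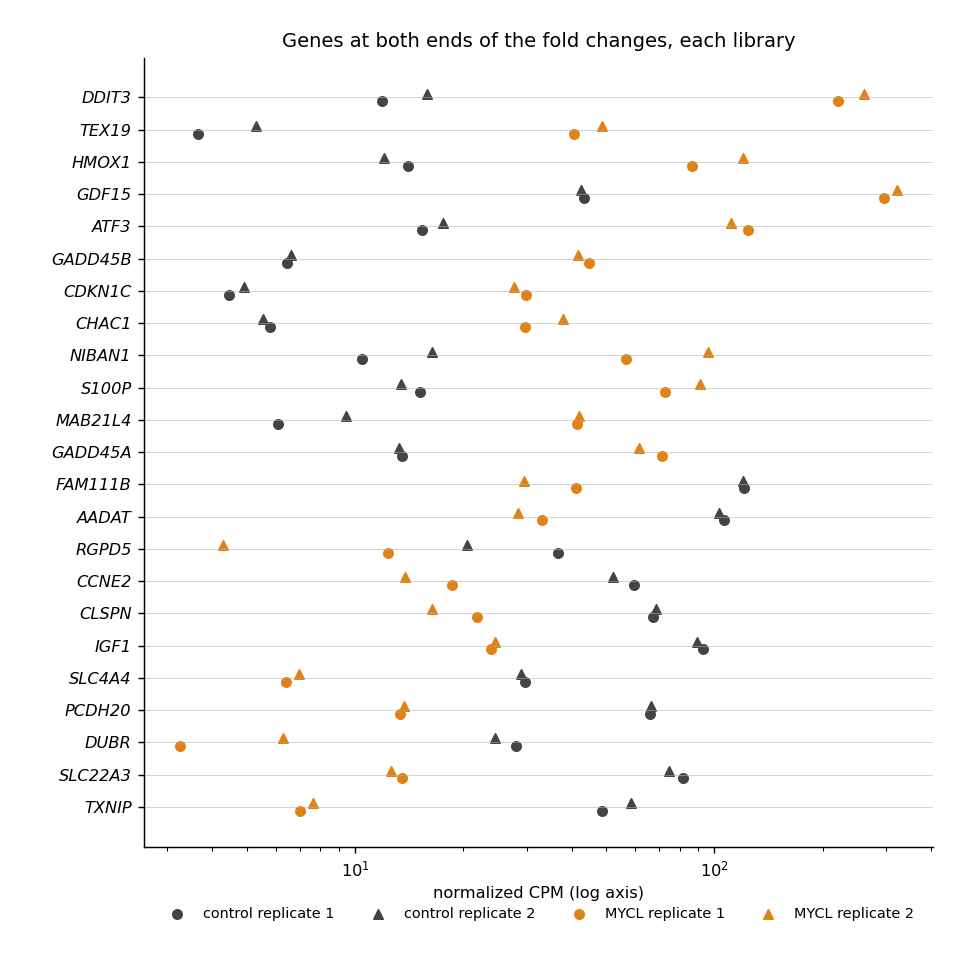
Normalized CPM on a log axis in each of the 4 C4-2B libraries for 23 of the 24 highest and lowest called genes, with control libraries in grey and MYCL libraries in orange. The choice required both MYCL libraries of each gene to lie on one side of both control libraries. The replicates of RGPD5 and DUBR are farthest apart.

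Among called genes ranked by change in abundance rather than fold, HSPA5, the chaperone BiP of the endoplasmic reticulum, gained most after MYCL itself. It rose from 1361 and 1362 CPM in control to 3633 and 5750.4 CPM in MYCL libraries. ASPH, a hydroxylase of the same compartment, rose from 2412 and 2723 CPM in control to 4339 and 4131 CPM in MYCL libraries, and HSP90B1, its GRP94 chaperone, was measured at 1863 and 1770.3 CPM against 2332 and 3342 CPM. HSP90B1 passed the test but lost its call by DESeq2 and without MYCL replicate 2, where its log2 fold change was 0.36. The other large gains among called genes were RPL3, EEF1G, the glycolytic genes ALDOA and ENO1, and the ferritin heavy chain gene FTH1. ALDOA rose from 809.6 and 776 CPM in control to 1601 and 1785 CPM in MYCL libraries and FTH1 rose from 796 and 915 CPM in control to 1495 and 1656 CPM in MYCL libraries. EEF1G and ENO1, at log2 fold changes of 0.52 and 0.51, lay just inside the fold threshold and were not called without control replicate 2 or MYCL replicate 2. The exons of EEF1G lie over 99.7% of their length, and those of ALDOA over 42.8%, in another gene on the same strand, and those of FTH1 over 63.2% in BEST1 on the other strand.

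The largest losses in abundance among called genes were in HSPA8, the constitutive cytosolic HSC70, and MT-RNR1, the mitochondrial small ribosomal RNA. HSPA8 fell from 2740.2 and 2453 CPM in control to 1496 and 1668 CPM in MYCL libraries. MT-RNR1 fell from 2777 and 2806 CPM in control to 1510.1 and 2053 CPM in MYCL libraries and was not called without MYCL replicate 1. NCL (nucleolin), PTMA and HMGB1, all abundant nuclear proteins, followed, with log2 fold changes of -0.9, -0.66 and -0.79. ACSL3 and SORD, which act in fatty acid and polyol metabolism and are induced by androgen in prostate cells, had log2 fold changes of -0.96 and -0.57.

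The integrated stress response is the program by which cells that lack amino acids or fold proteins poorly slow translation and raise ATF4, which then induces DDIT3, amino acid enzymes and transporters. Of 39 genes of this response, all tested, 29 were higher and 1 lower, with a median log2 fold change of 1.08 and positive values in 38. ATF4 itself was measured at 576 and 528 CPM against 710.5 and 917 CPM, a log2 fold change of 0.56. TRIB3, a target that restrains the response, went from 38.6 and 39.6 CPM in control to 109 and 146 CPM in MYCL libraries, and SESN2, which senses leucine, went from 11.9 and 12.2 CPM in control to 31.6 and 41.5 CPM in MYCL libraries. ASNS, asparagine synthetase, went from 221 and 251 CPM in control to 399 and 492 CPM in MYCL libraries. SLC7A11, the cystine importer, rose from 155 and 165 CPM in control to 259.8 and 363 CPM in MYCL libraries. ATF4, TRIB3, SESN2 and ASNS were chosen after their values were seen. The hormone gene FGF21 had 8 and 3 estimated counts in control against 82 and 172 in MYCL cells, and INHBE, an activin subunit, had 23 and 3 estimated counts in control against 74 and 120 in MYCL cells, both below the count minimum for naming and also chosen after their values were seen. ATF5 was the 1 member that fell, from 23 and 19.4 CPM in control to 8.24 and 8.98 CPM in MYCL libraries.

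Endoplasmic reticulum chaperones and the genes that dispose of misfolded protein belong to the unfolded protein response, which shares its PERK branch with the program above. Of 38 genes tested, 23 were higher and 0 lower (0 at an unadjusted p under 0.05) by edgeR, with a median of 0.56. DESeq2 also made no call in the direction for which a gene list is given here with 0 calls by edgeR. HERPUD1, which acts in degradation from the reticulum, rose from 95.2 and 105 CPM in control to 374 and 498 CPM in MYCL libraries. DNAJB9, a cochaperone of BiP, rose from 33.9 and 31.5 CPM in control to 126 and 159.9 CPM in MYCL libraries, and ERO1B, an oxidase that forms disulfides, rose from 17.1 and 19.99 CPM in control to 56.7 and 72.9 CPM in MYCL libraries. Genes of the calreticulin cycle were not called, with CANX at -0.1, PDIA3 at 0.07 and CALR at 0.27. The list's median was 0.43 in replicate 1 and 0.66 in replicate 2 above the control mean. Without replicate 2, 14 of the 38 were called, and without replicate 1, 28.

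Cytosolic heat shock genes moved in both directions, with 6 higher and 10 lower of 33 tested and a median of -0.26. Subunits of the TRiC chaperonin and HSP70 partners were lower: TCP1 fell from 551 and 494 CPM in control to 266 and 281 CPM in MYCL libraries, HSPH1 fell from 389.9 and 336 CPM in control to 211 and 201 CPM in MYCL libraries, and CCT6A had a log2 fold change of -0.73. The small heat shock gene HSPB1 rose from 173 and 185 CPM in control to 342 and 376 CPM in MYCL libraries. Targets of NRF2 and iron genes gave 9 higher and 1 lower of 25, where OSGIN1 had a log2 fold change of 1.75 and TFRC, the transferrin receptor, fell from 605 and 577 CPM in control to 315 and 297 CPM in MYCL libraries. Of 14 tested metallothioneins and zinc transporters of 21, 0 were higher (2 at an unadjusted p under 0.05) and 5 lower by edgeR: MT1X, SLC30A1, SLC30A4, SLC39A6 and SLC39A8, between -0.84 and -0.54. Lysosome and autophagy genes gave 10 higher and 3 lower of 38, with OPTN, an autophagy receptor, at 2.0, MAP1LC3B at 1.37, the lysosomal factor TFEB at 1.15 and the calcium channel MCOLN1 at -0.77. Proteasome subunits gave 3 higher and 4 lower of 39, with PSMD1 at -0.66, PSMD2 at -0.59, PSME3 at -0.6 and PSME1 at 0.7. Without MYCL replicate 1, 1 of these subunits was higher, and without MYCL replicate 2, 7 were lower. The other 2 that were higher, PSMB8 at 2.79 and PSMB9 at 3.49, are immunoproteasome genes with few counts and were named after their values were seen.

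Aminoacyl-tRNA synthetases, several of which ATF4 induces, gave 3 higher and 2 lower of 22, with a median of 0.01. SARS1 rose from 169.9 and 171 CPM in control to 258 and 349.6 CPM in MYCL libraries, CARS1 from 88.8 and 95.2 CPM in control to 129 and 169 CPM in MYCL libraries, and AARS1 from 383 and 409.5 CPM in control to 541 and 692 CPM in MYCL libraries, while VARS1 and FARSB had log2 fold changes of -0.6 and -0.53. CARS1 and AARS1 were not called without MYCL replicate 2. Neither VARS1 nor FARSB was called without MYCL replicate 1, where 5 were higher, and FARSB was not called without control replicate 1.

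Promoter windows from 250 bases before to 50 after the start of a gene were taken from RefSeq on GRCh38.p14 and matched 11456 of the genes tested by symbol. The motif TTGCATCA, searched on both strands, so also as TGATGCAA, is the form of the composite CCAAT enhancer and ATF element at which ATF4 binds. It lay in 59 windows (0.515% of those matched and 0.923% of all 27305 RefSeq windows), and 30.5% of these genes were higher and 3.39% lower, beside 12.4% and 8.63% of genes without it. Among synthetase genes it lay in 33.3% of 18 windows, among integrated stress response genes in 6.25% of 32. The 250 bases before the start are shown for 3 named genes that rose and hold the motif, in capitals, chosen after their values were seen. CHAC1 (chr15:40953221-40953470, plus strand) holds it 209 bases before its start, AARS1 (chr16:70289507-70289756, minus strand) 187 bases and HERPUD1 (chr16:56931892-56932141, plus strand) 176 bases.
CHAC1: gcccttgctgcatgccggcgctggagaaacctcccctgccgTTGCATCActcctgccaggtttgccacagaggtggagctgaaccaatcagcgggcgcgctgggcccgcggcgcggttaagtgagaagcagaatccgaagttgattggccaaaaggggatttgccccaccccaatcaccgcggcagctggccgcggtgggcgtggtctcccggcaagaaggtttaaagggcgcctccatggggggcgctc
AARS1: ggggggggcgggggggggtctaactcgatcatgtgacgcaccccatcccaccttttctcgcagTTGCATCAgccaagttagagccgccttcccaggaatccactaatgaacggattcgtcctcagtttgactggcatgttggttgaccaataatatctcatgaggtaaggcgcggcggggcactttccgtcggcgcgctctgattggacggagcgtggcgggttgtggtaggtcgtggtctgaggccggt
HERPUD1: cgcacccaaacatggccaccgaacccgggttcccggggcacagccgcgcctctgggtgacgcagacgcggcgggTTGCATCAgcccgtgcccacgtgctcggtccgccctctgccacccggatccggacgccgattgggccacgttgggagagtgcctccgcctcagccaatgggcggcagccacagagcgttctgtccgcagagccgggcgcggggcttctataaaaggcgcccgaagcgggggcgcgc

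The same letters lay in the windows of 2 synthetase genes that were not called, IARS1 at -0.1 and MARS1 at -0.12. The E-box CACGTG, which reads the same on both strands, lay in 10.1% of the windows. Genes with it were higher in 10.9% and lower in 11.1% of cases, beside 12.7% and 8.31% of genes without it. Among the 12 highest genes, 8 had a window and 1 held CACGTG, and among the 12 lowest, 6 had a window and 0 held it. That 1 gene is GADD45B (chr19:2475877-2476126, plus strand), shown over the 250 bases before its start with the E-box 168 bases upstream in capitals.
GADD45B: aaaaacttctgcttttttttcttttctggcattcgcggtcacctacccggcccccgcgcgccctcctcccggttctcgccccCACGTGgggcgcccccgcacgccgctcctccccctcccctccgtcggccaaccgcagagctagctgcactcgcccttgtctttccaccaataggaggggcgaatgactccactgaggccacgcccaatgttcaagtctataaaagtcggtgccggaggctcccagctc

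Ribosome production was split. Genes of ribosome biogenesis and the nucleolus, the best known targets of MYC, gave 0 higher (2 at an unadjusted p under 0.05) and 22 lower of 62 by edgeR, with a median of -0.44 and negative values in 57. NCL fell from 1587 and 1470.2 CPM in control to 769 and 864 CPM in MYCL libraries. UTP20, a factor of the small subunit processome, fell from 77.5 and 64.4 CPM in control to 32.9 and 32.8 CPM in MYCL libraries, and FTSJ3, an rRNA methyltransferase, fell from 126 and 126 CPM in control to 68 and 68.5 CPM in MYCL libraries. The E-box was common in this list, in 38.9% of 54 windows. UTP20 (chr12:101279855-101280104, plus strand) holds it 10 bases before its start, and its 250 bases are shown, E-box in capitals, as an example of an E-box gene that fell, chosen after its value was seen.
UTP20: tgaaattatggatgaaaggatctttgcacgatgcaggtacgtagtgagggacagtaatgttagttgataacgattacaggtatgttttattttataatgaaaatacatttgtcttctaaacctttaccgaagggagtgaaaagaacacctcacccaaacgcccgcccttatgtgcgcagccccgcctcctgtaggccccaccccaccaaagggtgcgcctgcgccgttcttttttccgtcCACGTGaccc

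Among cytosolic ribosomal proteins 10 were higher and 0 lower (0 at an unadjusted p under 0.05) of 80 by edgeR. The share called higher, 12.5%, was close to the 11.8% of all genes. Their median was 0.39 and 79 of 80 values were positive, all but RPS26 at -0.08, a small shift in nearly every member. Together these genes took 69422 and 68773 CPM in the control libraries and 83085 and 93815 CPM in the MYCL libraries. RPS21 rose from 278 and 280.0 CPM in control to 417 and 485 CPM in MYCL libraries and RPL12 rose from 622 and 656 CPM in control to 932 and 1080.4 CPM in MYCL libraries. The list's median was 0.29 in MYCL replicate 1 and 0.47 in MYCL replicate 2 above the control mean. Without MYCL replicate 1, 38 were called higher, and without MYCL replicate 2, 2. With upper-quartile factors 24 were called higher, and by limma on log2(TPM + 1), 2. The E-box lay in 4.69% of 64 windows of these genes.

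Mitochondrial ribosomal proteins gave 0 higher (3 at an unadjusted p under 0.05) and 1 lower, MRPL50, of 77 by edgeR, with a median of -0.15. The lower calls were 6 without MYCL replicate 2, 2 without either control replicate and 15 by limma on log2(TPM + 1). Nucleotide synthesis gave 0 higher (2 at an unadjusted p under 0.05) and 12 lower of 32 by edgeR, with a median of -0.37: CAD, which starts pyrimidine synthesis, fell from 83.2 and 84 CPM in control to 49.4 and 45.5 CPM in MYCL libraries, IMPDH1, which commits purines to guanine nucleotides, fell from 96.7 and 97.5 CPM in control to 53.4 and 60.6 CPM in MYCL libraries, and TYMS, thymidylate synthase, had a log2 fold change of -0.76. Translation factors gave 2 higher and 8 lower of 45, with EIF4G1, the scaffold of cap binding, at -0.74, EIF5A at -0.64, EIF4G2 at -0.59 and EIF3L at 0.57. The 2 higher became 4 without MYCL replicate 1 and 1 without any other 1 of the libraries. Small nucleolar RNA host genes gave 3 higher and 9 lower of 24, with DANCR, which fell from 113 and 111 CPM in control to 43.3 and 50.6 CPM in MYCL libraries, SNHG12 at -1.16, SNHG10 at -1.13 and SNHG32 at 0.81. In the MYC, MAX and MXD network, 3 of 12 tested were higher and 0 lower (2 at an unadjusted p under 0.05) by edgeR. All 3 encode proteins other than MYC family members: MXI1 went from 66 and 62.3 CPM in control to 101 and 103 CPM in MYCL libraries, MXD1 went from 6.18 and 6.51 CPM in control to 12.7 and 9.55 CPM in MYCL libraries and MLXIPL, the glucose-responsive ChREBP, had a log2 fold change of 1.39. MYC was measured at 145 and 141 CPM against 96.4 and 114 CPM, below both controls but not past the fold threshold.

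Replication genes copy the genome in S phase. Of 60 genes of DNA replication, 41 were lower and 1 higher, with a median of -0.69. CLSPN, which relays signals from stalled forks, fell from 67.5 and 68.6 CPM in control to 21.9 and 16.4 CPM in MYCL libraries. MCM5, a subunit of the replicative helicase, fell from 86.6 and 81.4 CPM in control to 25.5 and 30.5 CPM in MYCL libraries, and MCM10, which activates that helicase, fell from 73.7 and 76.3 CPM in control to 31.7 and 24.7 CPM in MYCL libraries. Every MCM2-7 helicase gene was called lower: MCM2 at -1.23, MCM3 at -0.88, MCM4 at -1.29, MCM5 at -1.59, MCM6 at -1.09 and MCM7 at -1.17. POLD4, the smallest subunit of polymerase delta, was the 1 member called higher, at 12.3 and 16.3 CPM against 20.1 and 24.7 CPM, and lost its call without control replicate 1 or MYCL replicate 2.

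DNA repair and Fanconi genes gave 0 higher (3 at an unadjusted p under 0.05) and 22 lower of 50 by edgeR, with a median of -0.48, with FANCB at -1.45 and XRCC2 at -1.39. Mitosis and spindle genes gave 0 higher (3 at an unadjusted p under 0.05) and 21 lower of 70 by edgeR, with a median of -0.32. CDC25A, the phosphatase that activates CDK2, fell from 38.5 and 37.3 CPM in control to 16.9 and 12.1 CPM in MYCL libraries, FOXM1, which drives mitotic genes, fell from 98.9 and 99 CPM in control to 48.6 and 43.5 CPM in MYCL libraries, and SMC4 of condensin fell from 309 and 266 CPM in control to 137 and 129 CPM in MYCL libraries. The mitotic kinase genes PLK1, at -0.41, and AURKA, at -0.11, were not called, nor was TOP2A of the replication list, at 0.11. The summed level of replication genes was 5087 and 5025 CPM in control and 3274 and 3153 CPM in MYCL libraries, and that of mitosis genes was 7198 and 6887 CPM against 5556 and 5549 CPM.

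Genes of the G1 to S transition gave 6 higher and 10 lower of 28. CCNE2, cyclin E2, fell from 59.6 and 52.2 CPM in control to 18.5 and 13.7 CPM in MYCL libraries, and 37.0% of its exon length lies in INTS8 on the other strand. E2F8 and RBL1 both had a log2 fold change of -1.17. All 3 members of the CIP/KIP family of CDK inhibitors rose, CDKN1C as above, CDKN1A (p21) from 77.2 and 75.2 CPM in control to 139.7 and 164 CPM in MYCL libraries and CDKN1B (p27) from 62.2 and 58.9 CPM in control to 128 and 117 CPM in MYCL libraries, the last pair chosen after their values were seen. CCND2, cyclin D2, had 0 and 1 estimated counts in control against 11 and 10 in MYCL cells, and was chosen after its values were seen. Among p53 targets 7 were higher and 0 lower (5 at an unadjusted p under 0.05) of 29 by edgeR, with a median of 0.15: GADD45A, GDF15 and PMAIP1, the last a BH3-only activator of apoptosis, which rose from 5.5 and 5.63 CPM in control to 18.8 and 22.1 CPM in MYCL libraries, led them. GDF15 is also a member of the integrated stress response and TGF-beta lists. MDM2 and PPM1D, feedback inhibitors of p53, were at -0.41 and -0.42, not called. The BCL2 family gave 6 higher and 2 lower of 17, with BNIP3L at 0.84, BNIP3 at 0.74 and BCL2L11 at -0.66. The 2 lower became 1 without control replicate 2 or MYCL replicate 1, and 1 of the p53 targets was then called lower.

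An E2F-type motif, TTTGGCGC, TTTCGCGC or TTTCCCGC on either strand, lay in 4.61% of the promoter windows. Genes that hold it were higher in 5.30% and lower in 13.6% of cases, beside 12.9% and 8.35% of genes without it, and among DNA replication genes it lay in 41.5% of 53 windows. UHRF1, which brings DNMT1 to replicated DNA, fell from 57.6 and 67.9 CPM in control to 31.1 and 23.2 CPM in MYCL libraries. It holds the reverse complement of TTTCCCGC 14 bases before its start (chr19:4909251-4909500, plus strand), in capitals, and is shown as the named replication gene with the motif before its start.
UHRF1: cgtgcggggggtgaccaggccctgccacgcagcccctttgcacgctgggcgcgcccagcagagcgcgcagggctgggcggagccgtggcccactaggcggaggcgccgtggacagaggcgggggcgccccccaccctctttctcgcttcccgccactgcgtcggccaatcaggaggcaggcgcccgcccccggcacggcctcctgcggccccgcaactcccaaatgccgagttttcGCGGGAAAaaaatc

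**Figure D3:**
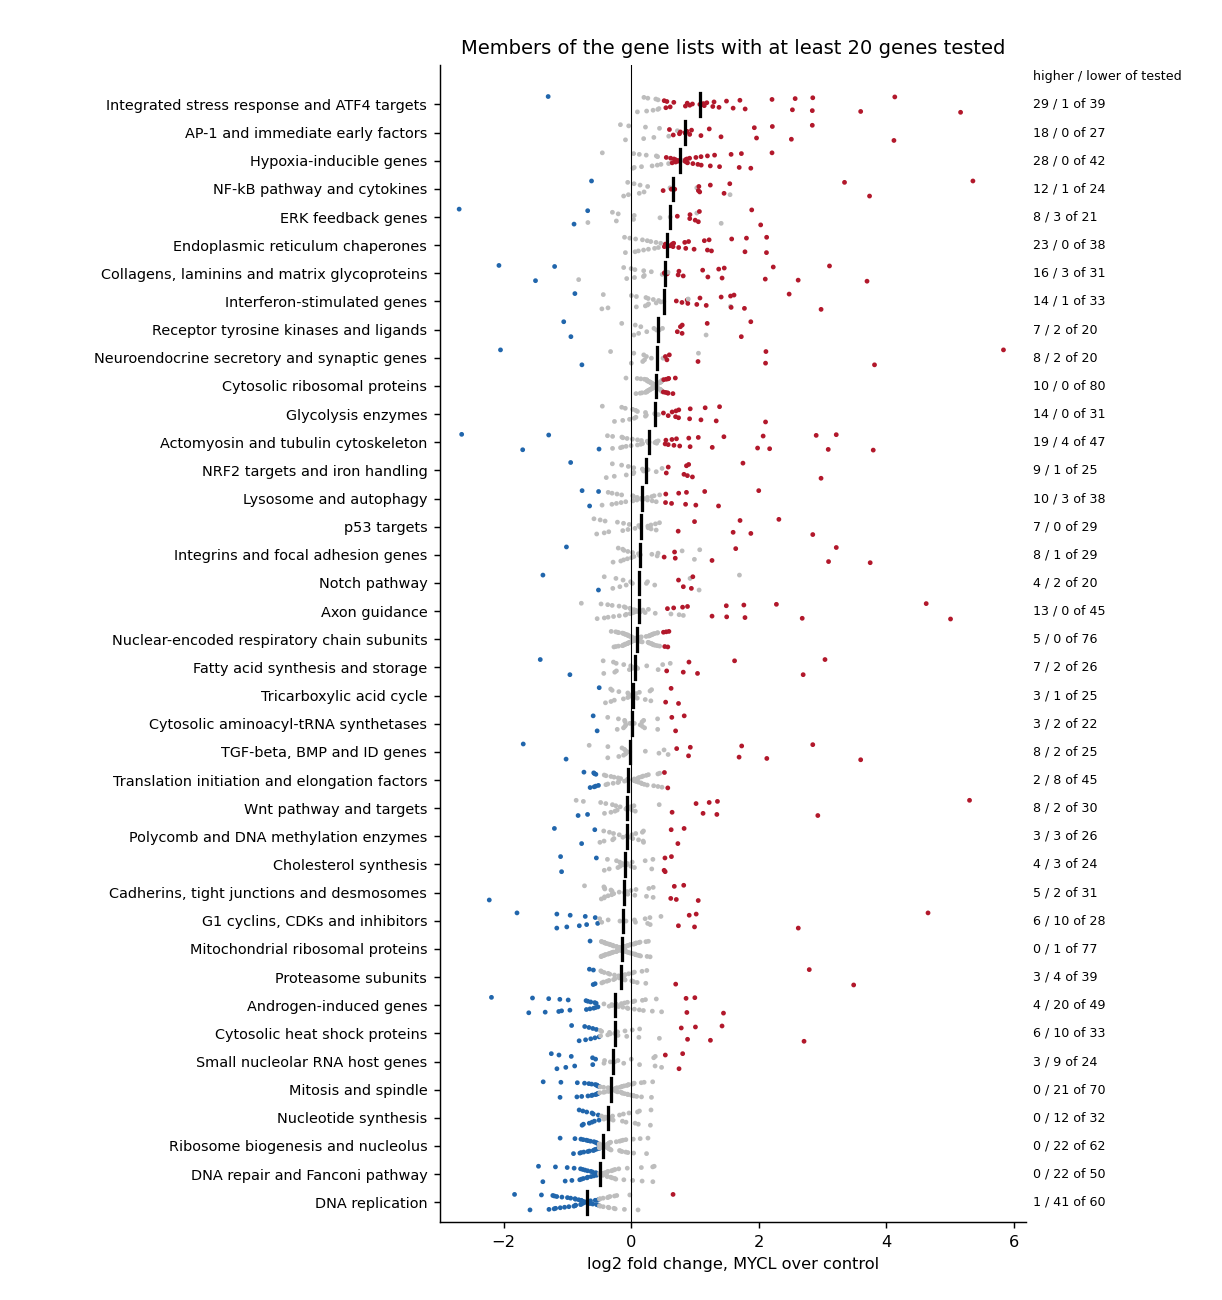
Log2 fold change of MYCL over control for the tested members of each gene list with at least 20 genes tested, each point a gene, red where called higher, blue where called lower and grey otherwise, with the list's median as a bar and its counts at the right. Stress, AP-1 and hypoxia lists lie at the top with medians of 1.08, 0.85 and 0.76, and DNA replication at the bottom with -0.69.

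Hypoxia-inducible genes are targets of HIF1A and EPAS1, and many serve glucose use and blood vessel growth. Of 46 genes 42 were tested, and 28 were higher and 0 lower (0 at an unadjusted p under 0.05) by edgeR, with a median of 0.76. DDIT4, which restrains mTORC1 and is also a target of ATF4, rose from 142 and 117 CPM in control to 589.7 and 608 CPM in MYCL libraries. VEGFA, the vascular growth factor, rose from 92 and 85.5 CPM in control to 344 and 308 CPM in MYCL libraries. ANKRD37 rose from 8.08 and 6.68 CPM in control to 28.2 and 21 CPM in MYCL libraries, with 40.3% of its exon length in UFSP2 on the other strand. HIF1A itself was at 0.13, not called, and EPAS1 at 0.97, called. The 2 MYCL libraries gave nearly the same median for the list, 0.81 and 0.78 above the control mean.

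Glycolysis gave 14 higher and 0 lower (1 at an unadjusted p under 0.05) of 31 by edgeR, with a median of 0.38. ENO2, the enolase used as a neuroendocrine marker, rose from 13.5 and 14.4 CPM in control to 60.8 and 59.1 CPM in MYCL libraries. PFKFB3, which makes the activator of phosphofructokinase, rose from 29 and 31.6 CPM in control to 85.3 and 72.9 CPM in MYCL libraries, and ALDOC rose from 83.7 and 78.7 CPM in control to 196 and 213 CPM in MYCL libraries. LDHA at 0.02, PKM at -0.09 and GAPDH at 0.22 were not called. In the small set around TXNIP, 1 was higher and 2 lower of 7: TXNIP and its relative ARRDC4 (11.2 and 12.3 CPM against 7.05 and 5.32 CPM) fell while MLXIPL, a factor that induces both, was higher.

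The respiratory chain, which drives ATP synthesis, gave 5 higher and 0 lower (7 at an unadjusted p under 0.05) of 76 by edgeR, with a median of 0.10. The 5 were COX5B, COX6A1, COX7A2, NDUFA7 and NDUFA13, between 0.51 and 0.59. Of these, COX7A2 alone was called without MYCL replicate 2, 3 genes were called without either control replicate, and 0 were by limma on log2(TPM + 1). Of 13 mitochondrially encoded proteins, 0 were called by edgeR (4 higher and 0 lower at an unadjusted p under 0.05), with a median of 0.10. The tricarboxylic acid cycle gave 3 higher and 1 lower of 25, namely GOT1 at 0.74, IDH3G at 0.63, PC at 0.54 and DLAT at -0.5. IDH3G and PC were not called without MYCL replicate 2, nor PC without control replicate 1. DLAT, at the fold threshold, was not called by DESeq2 or without control replicate 1 or MYCL replicate 1. Cholesterol synthesis gave 4 higher and 3 lower of 24, with a median of -0.10 and negative values in 15. ACAT2 was at -1.11, TM7SF2 at 0.63, MVD at 0.53 and STARD4 at 0.53. Without control replicate 2 or MYCL replicate 2, 2 were called higher, MVD not among them. Fatty acid synthesis and storage gave 7 higher and 2 lower of 26. HILPDA, which blocks lipolysis on lipid droplets, rose from 36.3 and 36.8 CPM in control to 75.1 and 75.2 CPM in MYCL libraries, ACSL1 and AGPAT2 had log2 fold changes of 0.82 and 0.91, and ELOVL7, a fatty acid elongase, fell from 379 and 368 CPM in control to 144 and 134 CPM in MYCL libraries.

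Immediate early genes encode AP-1 and related factors that respond to stress and growth signals within minutes. Of 36, 27 were tested, and 18 were higher and 0 lower (0 at an unadjusted p under 0.05) by edgeR, with a median of 0.85. JUN rose from 17.4 and 18.9 CPM in control to 76.6 and 64.7 CPM in MYCL libraries and JUND rose from 39.1 and 46 CPM in control to 159 and 164 CPM in MYCL libraries. FOS had 18 and 10 estimated counts in control against 169 and 143 in MYCL cells, chosen after its values were seen, while EGR1 at -0.09, FOSB at -0.17 and IER2 at -0.04 were not called. The AP-1 site TGACTCA, on either strand, lay in 2.96% of windows, and genes that hold it were higher in 19.5% and lower in 7.96% of cases, beside 12.3% and 8.62% of genes without it. ERK feedback genes gave 8 higher and 3 lower of 21: DUSP1, a phosphatase of MAP kinases, rose from 11.9 and 10.9 CPM in control to 47.9 and 36.9 CPM in MYCL libraries, PHLDA2 and DUSP8 had log2 fold changes of 1.0 and 0.92, and PHLDA1 had -0.9. The list's median of 0.61 was 0.70 in MYCL replicate 1 and 0.22 in replicate 2 above the control mean. On log2(TPM + 1), where 15 of the 21 members were tested, the median was -0.08.

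NF-kB pathway genes and cytokines gave 12 higher and 1 lower of 24 tested of 38, with a median of 0.66. IL32, a proinflammatory cytokine, rose from 1.6 and 1.43 CPM in control to 20.2 and 20.6 CPM in MYCL libraries, a log2 fold change of 3.74 ± 0.16 (SE, n = 2 per group, edgeR adjusted p = 3.9e-06). BIRC3, an inhibitor of apoptosis, rose from 9.25 and 10.4 CPM in control to 24.9 and 21.4 CPM in MYCL libraries, and TNFAIP2 rose from 11.5 and 12.9 CPM in control to 25.3 and 25.1 CPM in MYCL libraries. The chemokine gene CCL20 had 4 and 8 estimated counts in control against 153 and 173 in MYCL cells, chosen after its values were seen. NFKB1 itself was the 1 that fell, from 28.5 and 28.6 CPM in control to 18.4 and 18.7 CPM in MYCL libraries.

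Interferon-stimulated genes gave 14 higher and 1 lower of 33, with a median of 0.51, and MHC class I genes 7 higher and 0 lower (0 at an unadjusted p under 0.05) of 19 by edgeR, with a median of 0.47. IFITM1, IFI6 and IFITM3, which act against viruses, had log2 fold changes of 1.61, 1.41 and 1.03. HERC6 had -0.88. Without control replicate 1 or MYCL replicate 1, 2 interferon-stimulated genes were called lower. TAP1, the peptide transporter, rose from 7.1 and 7.01 CPM in control to 16.6 and 18.2 CPM in MYCL libraries, and HLA-B rose from 6.73 and 5.67 CPM in control to 12.1 and 13.8 CPM in MYCL libraries. IFIT1 at 0.26 and MX1 at 0.51 were not called. Among 7 leukocyte markers, 2 were tested, and CD68, a lysosomal glycoprotein, rose from 10.8 and 13.5 CPM in control to 32.7 and 37.2 CPM in MYCL libraries. Its exons share 81.6% of their length with another gene on the same strand. The summed level of the 2 tested markers was 11.3 and 14.2 CPM in control and 33.0 and 37.3 CPM in MYCL libraries. Its part in the results for interferon and MHC class I genes was not tested.

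**Figure D4:**
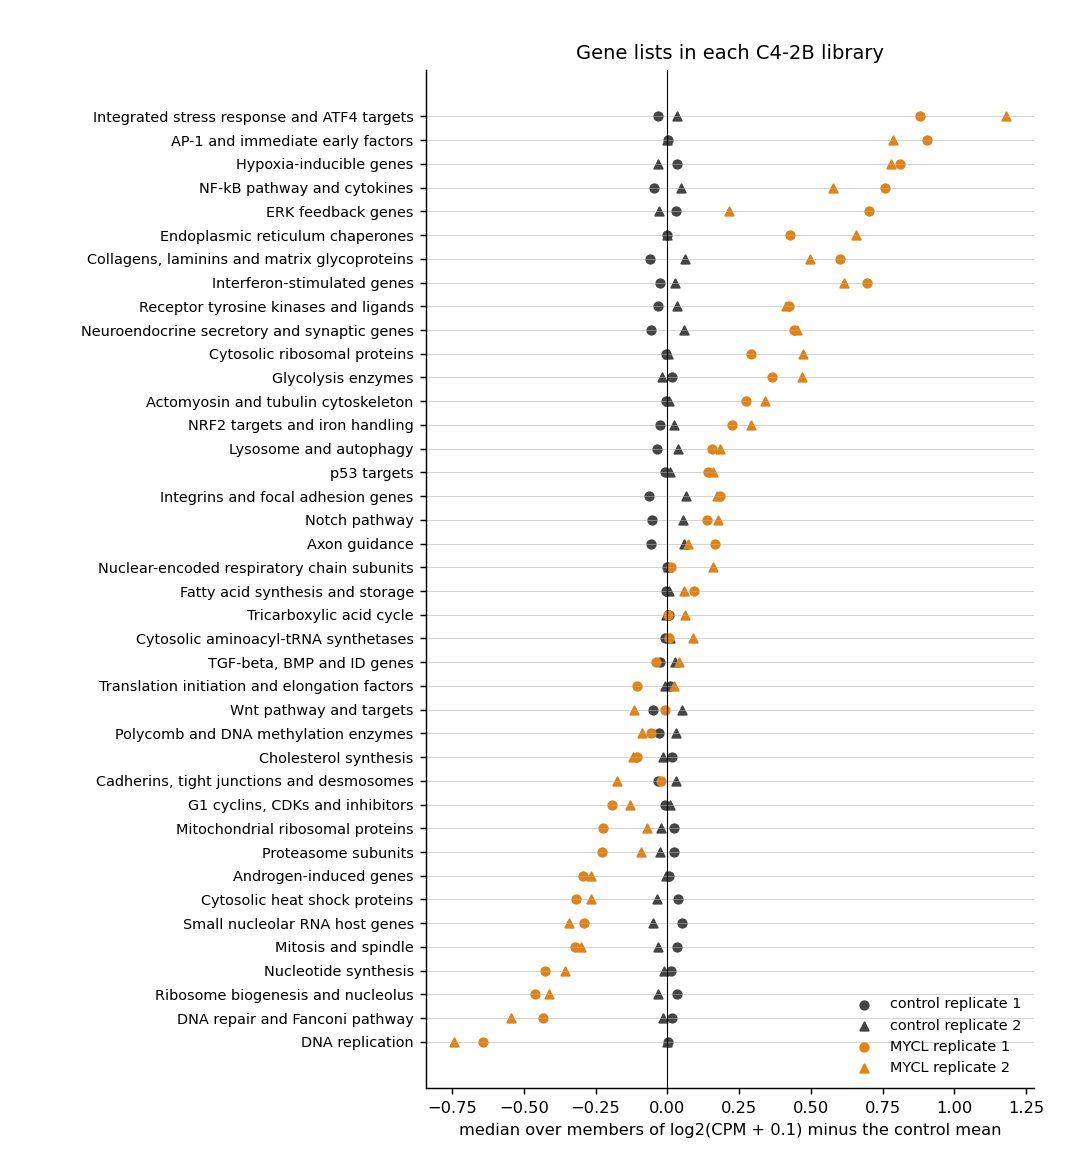
Median over list members of log2(CPM + 0.1) minus the control mean, in each C4-2B library, with control libraries in grey and MYCL libraries in orange. The MYCL libraries lie close together for hypoxia genes, at 0.81 and 0.78, and apart for ERK feedback genes, at 0.70 and 0.22.

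Androgen induces many secretory genes of the prostate, among them KLK3, the gene of prostate specific antigen. Of 49 androgen-induced genes, 20 were lower and 4 higher, with a median of -0.25. SLC45A3 (prostein) fell from 532 and 495 CPM in control to 174 and 177 CPM in MYCL libraries, SMS, spermine synthase, fell from 420.0 and 359 CPM in control to 155 and 151 CPM in MYCL libraries, and ELL2, an elongation factor, fell from 238 and 240.4 CPM in control to 110.4 and 107 CPM in MYCL libraries. TSC22D3, also induced by glucocorticoids, rose from 64.6 and 65.2 CPM in control to 168 and 186 CPM in MYCL libraries. KLK3 went from 1234 and 1233 CPM in control to 872 and 847 CPM in MYCL libraries, just past the fold threshold, and KLK2 at -0.24, FKBP5 at -0.2 and TMPRSS2 at 0.39 were not called. In the luminal marker list ACP3, KLK3 and SLC45A3 were among the 4 lower.

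Luminal transcription factors gave 1 higher and 4 lower of 16. NR2F1, NR2F2 and KLF5 had log2 fold changes of -0.87, -0.74 and -0.75. ELF3, an epithelial ETS factor, rose from 20.1 and 21.4 CPM in control to 79.9 and 74.9 CPM in MYCL libraries. FOXA1, at 259 and 259.8 CPM against 196 and 196 CPM, was below both controls but not past the fold threshold. Of 8 basal markers 4 were tested and 3 called higher, at a few CPM: KRT14 at 0.246 and 0.63 CPM against 1.68 and 1.26 CPM, KRT15 at 0.984 and 1.09 CPM against 3.25 and 3.32 CPM and ITGB4 at 3.17 and 3.91 CPM against 5.75 and 5.55 CPM. KRT14 and ITGB4 were not called by DESeq2, and ITGB4 lost its call without any 1 of the 4 libraries. The summed level of the 4 tested basal markers was 20.6 and 23.9 CPM in control and 30.8 and 33.4 CPM in MYCL libraries.

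Neuroendocrine genes were mostly absent or at low counts. Of 32 neuroendocrine and neural transcription factors 16 were tested, with 3 higher and 2 lower: POU2F3 at 1.29, HES1 at 0.74, SOX9 at 0.68, ID1 at -1.02 and TCF4 at -1.11. POU2F3 and SOX9 were not called by DESeq2. POU2F3 lost its call without any 1 of the 4 libraries, SOX9 without either control replicate or MYCL replicate 1, and TCF4 without control replicate 2, so that 1 was called higher without either control replicate. Among 9 neuroendocrine cell markers only SYP passed the count filter, at 0.2, not called. Of 37 secretory and synaptic genes 20 were tested, with 8 higher and 2 lower and a median of 0.41. ENO2, also counted in the glycolysis list, led the members with enough counts. SYT7 and SYT4 had log2 fold changes of 0.56 and 0.6, and RIMS1, a scaffold of synaptic release, fell from 15.1 and 15.7 CPM in control to 3.53 and 3.89 CPM in MYCL libraries. Without control replicate 1, 4 were called higher. CALCA, the calcitonin gene, had 1 and 0 estimated counts in control against 21 and 26 in MYCL cells. Axon guidance genes gave 13 higher and 0 lower (6 at an unadjusted p under 0.05) of 45 tested of 64 by edgeR, with ROBO3 at 1.5, EFNA1 at 1.27 and EFNA3 at 0.88, and NTN1, netrin 1, had 0 and 1 estimated counts in control against 18 and 9 in MYCL cells. Without control replicate 1, 3 axon guidance genes were called lower, and without MYCL replicate 1, 1. CALCA and NTN1 were chosen after their values were seen. Polycomb and DNA methylation enzymes gave 3 higher and 3 lower of 26, among them KDM6B at 0.73, EZH1 at 0.63 and, with the lowest value, UHRF1. Without MYCL replicate 1, 5 were called lower.

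Collagens, laminins and other matrix genes gave 16 higher and 3 lower of 31 tested of 51, with a median of 0.52. COL6A2 rose from 12.4 and 14.1 CPM in control to 29.7 and 31.2 CPM in MYCL libraries, LAMB1 from 12.3 and 13.6 CPM in control to 20.2 and 23.2 CPM in MYCL libraries and COL1A1 from 9.96 and 11.8 CPM in control to 18.5 and 17.5 CPM in MYCL libraries, while THBS1, thrombospondin 1, fell from 28.9 and 27.3 CPM in control to 12.2 and 12.2 CPM in MYCL libraries. Of 8 fibroblast markers 2 were tested, COL1A1 and FBLN1, both called higher. COL1A1 is a member of the matrix list too, so its rise is the same observation. FBLN1 had 17 and 18 estimated counts in control against 55 and 52 in MYCL cells. The sum of these 2 was 10.5 and 12.5 CPM in control and 21.5 and 20.5 CPM in MYCL libraries. The part of fibroblast markers in the result was not tested. On log2(TPM + 1) 5 matrix genes were higher and 1 lower. Matrix metalloproteases, ADAMs and inhibitors gave 4 higher and 1 lower of 16 tested of 31: TIMP2 at 0.87, MMP14 at 1.25, MMP24 at 1.52, SERPINE2 at 2.44 and MMP16 at -0.79.

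The cytoskeleton list gave 19 higher and 4 lower of 47, with a median of 0.28. RND3, which opposes RhoA, rose from 6.7 and 7.73 CPM in control to 28.3 and 32.1 CPM in MYCL libraries, TUBA1A rose from 4.73 and 6.43 CPM in control to 14.9 and 15.5 CPM in MYCL libraries, TUBB6 rose from 13.2 and 18.9 CPM in control to 37.7 and 39.2 CPM in MYCL libraries, and CDC42EP3 fell from 12.7 and 13.1 CPM in control to 3.8 and 4.12 CPM in MYCL libraries. Integrins and focal adhesion genes gave 8 higher and 1 lower of 29, with ZYX at 0.69, FERMT2 at 0.52 and FERMT1 at -1.02, and ITGB1 and ITGAV, at -0.13 and -0.16, were not called. Cadherins and junctions gave 5 higher and 2 lower of 31, but the median was -0.11, with negative values in 20. The tight junction genes TJP3, CLDN4 and CLDN7 were at 1.05, 0.82 and 0.71. The 2 lower became 4 without MYCL replicate 1 and were not called without any other 1 of the libraries. Intermediate filaments gave 5 higher and 1 lower of 16: KRT80 at 1.8, VIM, the mesenchymal filament, at 0.91 and LMNB1 at -0.85. YAP and TEAD targets gave 2 higher, AMOTL2 and GADD45B, and 2 lower, FJX1 and WWTR1, of 19. AMOTL2 was not called without control replicate 1, and FJX1 was not called by DESeq2 or without control replicate 2 or MYCL replicate 1.

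Among signalling lists, receptor tyrosine kinases and ligands gave 7 higher and 2 lower of 20 tested of 38. MET rose from 5.56 and 6.72 CPM in control to 13.7 and 14.2 CPM in MYCL libraries, FGFR1 from 8.58 and 10.4 CPM in control to 16.8 and 16.1 CPM in MYCL libraries, and IGF1R fell from 214 and 212 CPM in control to 112 and 91.7 CPM in MYCL libraries. The insulin-like growth factor axis gave 3 higher and 3 lower of 13, IGF1 and its receptor being among the lower, and IGFBP5, chosen after its values were seen, had 1 and 0 estimated counts in control against 27 and 15 in MYCL cells. The TGF-beta, BMP and ID list gave 8 higher and 2 lower of 25, but its median was -0.02, with negative values in 13. LTBP1 was at 0.93, SMAD3 at 0.9 and ID1 at -1.02. The Wnt list gave 8 higher and 2 lower of 30, but its median was -0.06, with negative values in 18. NKD1 was at 0.64 and FZD5 at -0.83. Without control replicate 1, 4 of the Wnt list were higher, and without MYCL replicate 1, 5 were higher and 4 lower, NKD1 losing its call in both. The Notch list gave 4 higher and 2 lower of 20, with HES4 at 0.97, NOTCH3 at 0.82 and the ligand gene JAG1, which fell from 20.6 and 18.3 CPM in control to 7.86 and 7.03 CPM in MYCL libraries. JAG1 was the 1 Notch gene still called lower without control replicate 1.

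Of 2791 long noncoding RNAs 6.81% were higher and 5.91% lower, beside 13.5% and 8.84% of 12932 coding genes, and the difference was not tested. Among those with a mean log2 CPM of at least 3, LINC00632 rose from 9.84 and 9.62 CPM in control to 28.2 and 33.3 CPM in MYCL libraries and ROCK1P1, a pseudogene transcript whose symbol 2 identifiers share, had a log2 fold change of 1.5. DUBR, HELLPAR, FAM13A-AS1 and MAP7-AS1 had the lowest values, between -2.47 and -1.54. Of 16 tested prostate and cancer lncRNAs, 1 was higher, H19 at 1.51 and 1.81 CPM against 5.59 and 7.15 CPM, and 3 lower, and 2 were higher without either MYCL replicate. PCA3, a prostate cancer marker, was measured at 4.92 and 4.83 CPM against 1.3 and 1.37 CPM, MIR17HG, host of a MYC-induced microRNA cluster, at 11.3 and 10.9 CPM against 5.75 and 3.95 CPM, and DRAIC at 6.18 and 5.04 CPM against 3.2 and 2.97 CPM. With genes split into 3 equal groups by mean expression, 13.6% of the lowest were higher and 4.13% lower, 14.4% and 10.2% of the middle, and 7.33% and 10.0% of the highest. Across chromosomes, the share of higher calls was largest on chromosome 22, 17.8% of 437 with 3.43% lower. Lower calls outnumbered higher ones on chromosome 4, and by little on chromosomes 3 (99 and 95), 13 (33 and 28) and 21 (16 and 12). On the mitochondrial chromosome 1 of 15 genes was lower, MT-RNR1, and 0 were higher. On chromosome 4, 12.7% of 558 were lower and 6.99% higher.

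In NCI-H660 cells MYCL was reduced rather than raised, so the effect of more against less MYCL can be set beside that in C4-2B cells. The difference of the 2 effects was the interaction term of 1 model over the 8 libraries, and 3513 of 19605 genes (17.9%) differed at an adjusted p under 0.05 and a difference of at least 0.5. Both the size of the MYCL change and the cell line differ here, and their parts cannot be told apart. Of the 24 genes at the ends in C4-2B, 19 differed. They were chosen for their size in C4-2B, so a larger effect there is in part fixed by the choice. DDIT3 had log2 fold changes of 4.13 in C4-2B and 0.29 in NCI-H660, and ATF3 had log2 fold changes of 2.83 in C4-2B and -0.04 in NCI-H660. TXNIP had -2.88 and 0.06. TEX19 and SLC4A4 moved in opposite directions, TEX19 at 3.33 and -1.5 and SLC4A4 at -2.14 and 1.09. The NCI-H660 value of TEX19 rests on few counts, 12 and 9 in shCtrl against 26 and 26 in shMYCL libraries. CLSPN and FAM111B had negative values in both lines, CLSPN at -1.84 and -0.85 and FAM111B at -1.77 and -0.70. So did CCNE2, at -1.80 and -0.49, and PCDH20, at -2.30 and -0.58. Positive in both were CDKN1C at 2.61 and 0.79, GDF15 at 2.84 and 0.80 and HMOX1 at 2.97 and 0.58. Each gene named here as alike in sign passed an adjusted p under 0.05 by edgeR in NCI-H660. S100P, SLC22A3 and IGF1 had between 0 and 5 counts in the NCI-H660 libraries, and the difference of RGPD5 did not pass.

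**Figure D5:**
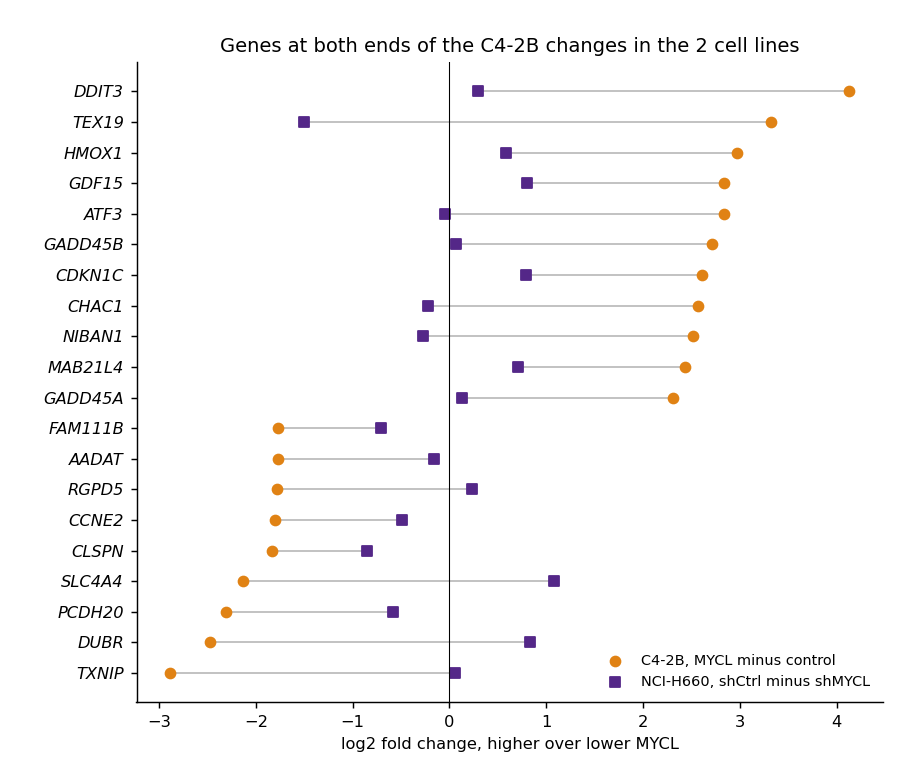
Log2 fold change of higher over lower MYCL in C4-2B (MYCL minus control, orange circles) and NCI-H660 (shCtrl minus shMYCL, purple squares) for the 20 end genes with more than 3 counts in every NCI-H660 library. The NCI-H660 value lies nearer 0 for all 20 genes, which is in part fixed by their choice for size in C4-2B. TEX19 and SLC4A4 passed their tests in both lines on opposite sides of 0, TEX19 with 9 to 26 counts in the NCI-H660 libraries.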

How the data were processed

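RNA was sequenced from poly(A)-selected paired-end libraries. The authors deposited estimated counts per gene, some of them fractional, and TPM values, which per the study's methods were obtained from the counts by correcting for gene length and library size. The submitters' notes name hg38. The aligner and counter are not given in the sources used here, nor is the strand setting. Groups followed the labelled treatment, and every column was mapped to a sample by its library name.

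Counts were rounded and genes with low counts removed with filterByExpr over the 4 C4-2B libraries, which were fitted alone with edgeR 4.0.16 in R 4.3.3 (TMM factors, quasi-likelihood test, Benjamini-Hochberg adjustment). Standard errors are of the log2 fold change. The difference between lines was fitted over all 8 libraries. Alternatives were relative log expression and upper-quartile factors, 2 other count filters, thinning, DESeq2 1.42.0, limma 3.58.1 on log2(TPM + 1) and log2(TPM + 0.1), the replicate block, a joint fit of all 4 groups, other fold thresholds and each library left out. Tables and figures were made with pandas 2.3.3 and matplotlib 3.10.9. The fit was tested on simulated data. Totals between 18090296 and 32344170 counts limit the precision of low genes. With 2 libraries per group an exact permutation test of a single value cannot go below p = 0.333, so none was used.

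Named genes were MYCL and the 12 highest and 12 lowest called genes by fold change. Genes at these ends needed a mean log2 CPM of at least 4 and no overlap between groups. Also named were the 8 largest rises and falls in CPM among called genes, and 4 long noncoding RNAs at each end. Each list gave up to 3 called genes in its main direction and 1 in the other with a mean log2 CPM of at least 3. Lists with 5 or fewer calls had all of them named. Some genes that the rule names are not reported here. Members and lists were chosen with earlier results of these data known. Gene positions and exon overlaps came from GENCODE 44, and promoters from RefSeq on GRCh38.p14.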

Additional observations from a re-analysis of the deposited data

Results flagged for a closer look

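Effects of more against less MYCL differed between the 2 cell lines, and each value here is the C4-2B log2 fold change minus the NCI-H660 one, tested as an interaction with edgeR. The test passed for 3513 genes. MYCL itself differed by 5.19, so the lines did not receive the same change. The widest differences among the genes at the ends were TEX19, 4.83, DDIT3, 3.83, DUBR, -3.30, SLC4A4, -3.22, and TXNIP, -2.94. Of these, TEX19 and SLC4A4 changed in NCI-H660 in the direction opposite to C4-2B. Counts in the NCI-H660 libraries were few for TEX19, 9 to 26, and for DUBR, 8 to 19. The change of DUBR within NCI-H660 did not pass (edgeR adjusted p = 0.26). The remaining genes of the upper end that passed the test were more positive in C4-2B, with ATF3 at 2.88, CDKN1C at 1.82, CHAC1 at 2.79, GADD45A at 2.18, GADD45B at 2.65, GDF15 at 2.04, HMOX1 at 2.39, MAB21L4 at 1.73 and NIBAN1 at 2.80. Those of the lower end that passed were more negative, with AADAT at -1.62, CCNE2 at -1.31, CLSPN at -0.98, FAM111B at -1.07 and PCDH20 at -1.72. These genes were chosen for their size in C4-2B, so a larger effect there than in the other line is in part fixed by the choice. Groups of 2 libraries were too small for a check of single libraries that stand apart.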

How the results depend on the processing

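Direction held for all 223 named genes in all 3548 values that 16 alternatives gave. The call was kept in 3301 of these values and lost in 247, and 142 genes kept it throughout. Named genes were called in the same libraries that the alternatives refit, so a kept direction was close to fixed by the choice. Of all 3355 calls, 0 were called in the opposite direction under any of these alternatives. The count of genes called, 3355, was 5895 with no minimum fold change (2931 of them lower) and 1411 at a log2 change of 1 or more (1032 higher, 379 lower), as the thresholds' construction gives. With limma on log2(TPM + 1), 1006 genes were called higher; on log2(TPM + 0.1), 1017 higher and 2141 lower; on log2(TPM + 1) with no filter, 1940 were called, 593 of them higher. The cause was not tested. Leaving out 1 library gave between 2835 and 3556 calls, 1580 to 1995 higher and 1255 to 1561 lower. The number of genes whose effect differs between C4-2B and NCI-H660 then lay between 2532 and 3513. With the replicate number as a block 3536 genes were called, 2104 higher and 1432 lower, and 3576 differed between the lines. Deviations of same-numbered libraries correlated at 0.033. With 2 pairs this is a single value, which cannot tell whether same-numbered libraries were handled together. The block changed no call of a named gene. Of 848 list medians under the alternatives, 556 moved by less than the replicate SD. Among the 25 lists with a median of at least 0.25 in size, 4 of 400 medians had the other sign. These were ERK feedback genes at -0.08 and -0.10 and the insulin-like growth factor axis at -0.03 and -0.04. All 4 were on the TPM scales, and none had the other sign relative to the median of all genes. On those scales 15 of 21 ERK feedback genes and 10 of 13 genes of the axis were tested, so the members differ too. For the gene lists, the count of calls in 1 direction or both moved by over 1.5 times in 35 to 41 of 53 lists by limma on TPM without centring, in 19 with centring, in 9 to 15 with 1 library left out and in 0 to 6 under the other alternatives. Lists with 0 calls in a direction gained 1 call there without control replicate 1 (mitochondrially encoded proteins), MYCL replicate 1 (DNA repair) or MYCL replicate 2 (MYC network, metallothioneins), beside those given above. Depth limits genes of a few counts, whose fold changes depend on the prior count.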

Other observations

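Among called genes, 14 had no count in either MYCL library and 11 none in either control library. Folds here are lower bounds against a floor of 3 counts per library, and the genes were listed by their counts alone. GTF2IP1, a pseudogene of the general factor gene GTF2I, had 130 and 113 counts in control and 0 in both MYCL libraries, at least 25.5-fold lower. SPDYE2B had 175 and 63 counts in control and 0 in MYCL libraries, at least 23.4-fold lower, and ANKRD36BP1 had 109 and 87 against 0, at least 20.4-fold lower. Of the 14, 3 were pseudogenes, 7 were coding genes that read through from a neighbour or carry no symbol, and 4 were coding genes with a symbol, CLCA2, GALNTL6, RSC1A1 and SPDYE2B. In the other direction, TP53TG3 had 0 counts in both control libraries and 26 and 29 in MYCL libraries, at least 12.2-fold higher, and PMS2CL, a pseudogene of the mismatch repair gene PMS2, had 0 against 34 and 20, at least 11.9-fold higher. Several of these genes have near-identical copies or lie within other genes, and how their reads were divided was not tested.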
